A study of Mus musculus with 1920 samples.

Results

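The comparison described here sets microglia taken from the corpus callosum of mice in the remyelination stage of cuprizone treatment against microglia taken in the demyelination stage. Wells of the 2 stages were found by their labels, and only wells passing 4 thresholds were used: 20000 or more counts on genes, 500 or more genes with a count, a mitochondrial share below 25% and a spike-in share below 50%. This gave 290 cells, 161 from demyelination and 129 from remyelination, of 1644 kept cells in the whole series. Counts were then added up over the cells of each replicate, 4 per stage, and these sums, not the cells, were compared.

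All mice were of the CD1 strain and 16 weeks old. The first group carried the cuprizone demyelination label, the second the cuprizone remyelination label, and 4 mice without treatment gave 173 corpus callosum cells as a reference for the level. Mice taken on days 3 and 14 after facial nerve axotomy, 4 per day with 168 and 171 kept cells, serve in a later comparison. The labels give neither the dose nor the length of cuprizone feeding or recovery, so the 2 stages are known by name alone. The stated design has 3 or 4 mice for a condition while the labels give 4 replicates in each group, so p-values would be too small if 2 replicates shared a mouse. The extraction protocol speaks of whole-brain homogenate, whereas the tissue label reads corpus callosum. Cells were stained for CD11b, CD45, Ly6C, Ly6G and CD206 and sorted singly into wells for Smart-seq2, which makes a full-length cDNA library from each cell and counts reads rather than molecules. The 2 stages shared a plate, demyelination in columns 1 to 12 and remyelination in columns 13 to 24, so plate position and stage cannot be told apart. Untreated corpus callosum was on another plate.

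Cuprizone is a copper chelator whose feeding kills oligodendrocytes, and the corpus callosum, the large white matter tract between the hemispheres, loses its myelin as a result. When feeding stops, new oligodendrocytes form and myelin is rebuilt. Microglia, the resident macrophages of the brain, take up the myelin debris, digest it in lysosomes and export its cholesterol, and in demyelinated tissue they switch on a set of genes that includes Apoe, Spp1, Cst7 and several cathepsins. The comparison asks which of these genes differ between the stage of myelin loss and the stage of repair.

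The cells themselves differed between the stages in measures that are not specific to any gene. In demyelination mice 1 to 4 the median cell had 1877, 2187.5, 2192 and 2186.5 detected genes, and in remyelination mice 1 to 4 it had 1074, 1428, 1751.5 and 1711. Every remyelination mouse thus lay below every demyelination mouse, and the order was the same after each cell was thinned to 20000 counts (1329 ± 113 against 825 ± 195 genes, SD, n = 4 each). The median spike-in share, which is higher where a cell yields less RNA, was 12.2%, 11.1%, 8.09% and 12.9% in demyelination and 27.0%, 27.0%, 15.2% and 17.3% in remyelination. The mitochondrial share was 1.61% ± 0.289 in demyelination and 2.38% ± 0.680 in remyelination (SD, n = 4). Of 190 wells per stage, 84.7% passed the filters in demyelination and 67.9% in remyelination. The sums held 15977939 to 19964472 counts in demyelination mice, 10921747 to 15279695 in remyelination mice and 7916457 to 10871196 in untreated mice. All 161 demyelination and all 129 remyelination cells had reads of at least 3 of the 12 microglia marker genes, whose summed level spanned 24860 to 33940 CPM in demyelination, 26630 to 38180 in remyelination and 38050 to 40950 in untreated mice. CPM here are counts scaled by library size and by edgeR's TMM factors, which were 0.755 to 0.931 for the cuprizone sums and 1.29 to 1.41 for the untreated sums, so levels set against untreated mice depend on that scaling. Without the factors the same marker sums were 23030 to 31130 CPM over both cuprizone stages and 50680 to 57580 CPM in untreated mice. Values for the median cell are without these factors.

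**Figure D1:**
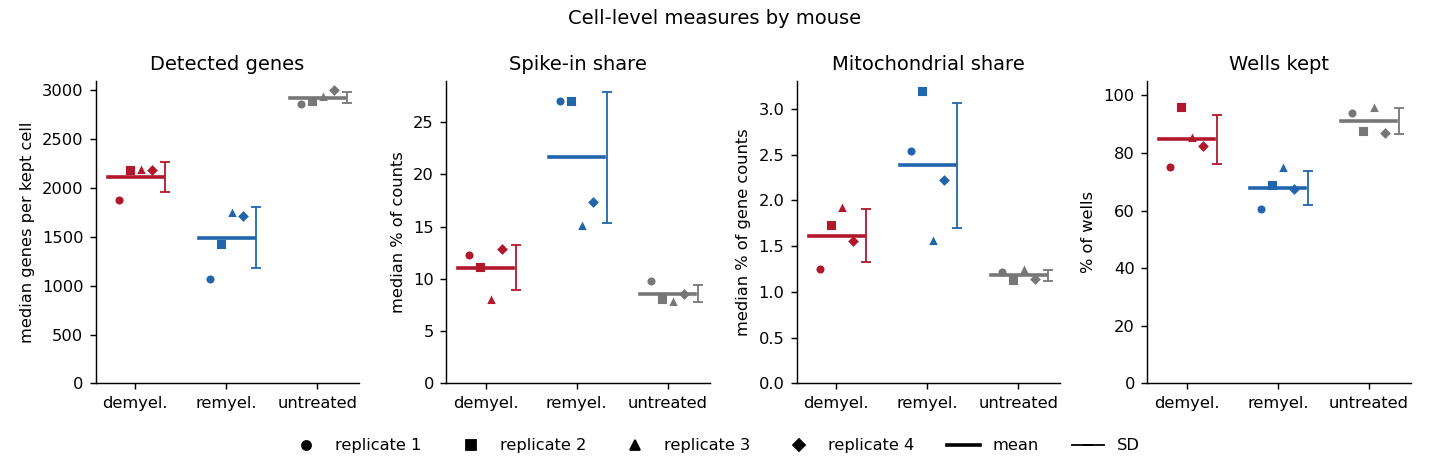
Median detected genes per kept cell, median spike-in share, median mitochondrial share and share of wells kept, for 4 mice each of demyelination, remyelination and untreated corpus callosum; points are mice, lines are means and bars SDs. Remyelination mice had 1074 to 1751.5 genes per median cell, below the 1877 to 2192 of demyelination mice.

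Of 14057 genes tested with edgeR's quasi-likelihood test, 6 passed a Benjamini-Hochberg adjusted p of 0.05. Cst3 and Malat1 were higher in remyelination (2 genes, 0.0142% of those tested), and Ctsd, Grn, Sparc and Racgap1 were lower (4 genes, 0.0285%). A further way to read the sums is whether the 4 mice of one stage all lie above the 4 of the other. They did in 582 genes, 4.14% of those tested: in 213 genes every remyelination mouse was above (1.52%) and in 369 every one was below (2.63%). At an unadjusted p under 0.05 there were 1985 genes, and the median log2 fold change over all genes was 0.03, where a positive value means higher in remyelination. Fitted on the 2 cuprizone groups alone, without the untreated sums that add to the estimate of the spread, 1 gene passed (Ctsd). DESeq2 on the same sums called 596 genes, 315 higher and 281 lower, all 6 genes above among them.

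Of the 4 genes lower in remyelination, Ctsd and Grn are lysosomal. Ctsd (ENSMUSG00000007891, chromosome 7, 142375911 to 142388038, minus strand of GRCm38) encodes cathepsin D, the main aspartic protease of the lysosome. It stood at 42425, 43952, 50577 and 41525 CPM in demyelination mice 1 to 4 and at 21828, 18873, 23101 and 19337 CPM in remyelination mice 1 to 4, with 6557 ± 1416 CPM in untreated mice (SD, n = 4). The remyelination mice lay close together, 2.15-fold below the demyelination mean and, on this scale, still above all untreated mice. Its log2 fold change was -1.10 with a standard error of 0.13 (adjusted p = 0.00226). The fall was spread over the cells: the median cell had 27066 to 41321 CPM in the demyelination mice and 9260 to 18792 CPM in the remyelination mice. Untreated mice had 6437 to 9691 CPM in the median cell, a range that took in remyelination mouse 2 (9260 CPM). The 3 cells richest in Ctsd held 7.25% of its counts in demyelination and 7.03% in remyelination. Leaving out any 1 mouse left the gene past the threshold. In cells with 1000 to 2500 detected genes, a range both stages share, the log2 fold change was -1.25 with an adjusted p of 0.351.

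Grn (ENSMUSG00000034708, chromosome 11, 102430315 to 102437048, plus strand) encodes progranulin, a secreted and lysosomal protein that is split into granulins and is needed for normal lysosome function. Its level was 5373, 6751, 5688 and 5508 CPM in demyelination mice 1 to 4 and 3148, 2255, 2817 and 3320 CPM in remyelination mice 1 to 4, against 1380 ± 141 CPM in untreated mice. The stages did not overlap. On this scale every remyelination mouse was also above the untreated mice, whereas in the median cell the remyelination mice (1050 to 2769 CPM) spanned the range of the untreated mice (1362 to 1823 CPM). The log2 fold change was -1.01 ± 0.15 (standard error, adjusted p = 0.0132). The call was lost without demyelination replicate 2 (adjusted p = 0.0970) and without remyelination replicate 2 (adjusted p = 0.0504), with log2 fold changes of -0.94 and -0.92.

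Ctsd and Grn were the only called genes of the 35 tested members of a list of cathepsins and other lysosomal genes. None of its members passed in the other direction, and the list's median log2 fold change was -0.24 beside 0.03 over all genes. In 7 members every remyelination mouse was below every demyelination mouse, and in 1 every one was above. Over all genes tested, 2.63% lay below and 1.52% above in this way. Ctsz (cathepsin Z) and Ctsl (cathepsin L), 2 of those 7 and picked after their values were seen, had 9924 ± 818 and 3853 ± 155 CPM in demyelination and 5745 ± 699 and 2228 ± 341 CPM in remyelination, each with a log2 fold change of -0.79 (adjusted p = 0.127 and 0.211). Ctsb, cathepsin B, measured 14556, 20129, 23419 and 22644 CPM in demyelination and 15523, 8914, 10586 and 11058 CPM in remyelination. Here remyelination mouse 1 was above demyelination mouse 1 (adjusted p = 0.166), and it passed without that remyelination mouse (log2 fold change -0.99 instead of -0.81, adjusted p = 0.0249) or without demyelination mouse 1 (-0.94, adjusted p = 0.0406). Ctss, cathepsin S, had 13928 ± 2034 and 17994 ± 3401 CPM in the 2 stages (log2 fold change 0.37, adjusted p = 0.290). Summed over the list, the median cell devoted 12.1% ± 0.611 of its counts to these genes in demyelination and 8.68% ± 0.512 in remyelination (SD, n = 4). Ctsd is a large part of this sum, with 32738 ± 6282 and 14165 ± 3907 CPM in the median cell of the 2 stages. By fitted level 21 members pointed lower and 14 higher, so the sum does not describe each member.

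Many lysosomal genes carry CACGTG in their promoters, the core of the site bound by TFEB and related factors that drive lysosomal gene expression. The 250 bases before RefSeq transcript starts (build GRCm38.p6) were searched for CACGTG, which reads the same on both strands. It was present in 6.02% of all 32851 promoters of the table and in 8.15% of the promoters of genes tested here. Ctsd holds it at 2 places and Ctsl at 1, whereas the Grn and Ctsz windows do not have these letters. Windows of 30 bases around the matches are shown because Ctsd has the smallest adjusted p of the list; capitals mark CACGTG. The first Ctsd window is chr7:142388048-142388077 and the second chr7:142387908-142387937, both on the minus strand, and the Ctsl window is chr13:64370739-64370768, also minus. The second Ctsd window lies before the RefSeq start but inside the span of the counted gene given above. The first Ctsd window and the Ctsl window lie outside the spans of their counted genes.
Ctsd, 245 bases before the start: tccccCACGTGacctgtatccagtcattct
Ctsd, 98 bases before the start: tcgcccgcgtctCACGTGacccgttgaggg
Ctsl, 236 bases before the start: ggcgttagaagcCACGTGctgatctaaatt
Within the lysosomal list, 10 of 33 promoters have the letters (30.3%). They include Gaa, acid alpha-glucosidase, with a log2 fold change of 0.02, and Lgmn, legumain, with 0.33 (adjusted p = 1.00 and 0.302), so genes with the letters reached from the fall of Ctsd to values at or above 0.

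Sparc and Cst3, which are both abundant in resting microglia, moved in opposite directions. Sparc (ENSMUSG00000018593, chromosome 11, 55394500 to 55420080, minus strand) encodes a secreted matrix-binding protein. It was at 6839, 6598, 7591 and 4916 CPM in demyelination mice 1 to 4, at 2717, 1713, 1614 and 2745 CPM in remyelination mice 1 to 4 and at 3883 ± 170 CPM in untreated mice. Remyelination was thus the lowest of the 3 groups, below every untreated mouse. The log2 fold change was -1.56 ± 0.19 (standard error, adjusted p = 0.00226). The median cell had 3382 to 5542 CPM in demyelination mice and 940 to 1610 CPM in remyelination mice. In untreated mice it had 4213 to 5369 CPM, within the demyelination range and above every remyelination mouse. In cells with 1000 to 2500 genes the log2 fold change was -2.31 (adjusted p = 0.00206), the only gene called there.

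Cst3 (ENSMUSG00000027447, chromosome 2, 148871722 to 148875692, minus strand) encodes cystatin C, a secreted inhibitor of cysteine cathepsins. It measured 16555, 14245, 14420 and 11981 CPM in demyelination mice 1 to 4, 41559, 31129, 24263 and 25990 CPM in remyelination mice 1 to 4, and 34769 ± 4673 CPM in untreated mice. No remyelination mouse overlapped demyelination. On this scale remyelination mice 1 and 2 were within or above the range of the untreated mice and mice 3 and 4 were below it. The log2 fold change was 1.10 ± 0.16 (standard error, adjusted p = 0.00929). In the median cell the level was 8476 to 11353 CPM in demyelination mice, 17594 to 23572 CPM in remyelination mice and 38138 to 44620 CPM in untreated mice, which puts all 4 remyelination mice below untreated. The fold between the stages depended on which cells were summed: among cells with at least 1000 genes and under 20% spike-in counts it was 0.63 on the log2 scale (adjusted p = 0.125), in cells with 1000 to 2500 genes 0.68 (adjusted p = 0.442), and without remyelination replicates 1 and 2, which had the highest spike-in shares, 0.81 (adjusted p = 0.0307; this last setting was chosen after the data were seen). Without remyelination replicate 2 alone it was 1.09 and without replicate 1 alone 0.92, and with every cell thinned to 20000 counts it was 1.09 (adjusted p = 0.0278, 0.00830 and 0.00183). The part of cell quality in the rise was not tested.

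Malat1 (ENSMUSG00000092341, chromosome 19, 5795690 to 5802672, minus strand), an abundant long noncoding RNA kept in the nucleus, was at 417, 345, 370 and 315 CPM in demyelination mice 1 to 4 and at 642, 1605, 1084 and 1331 CPM in remyelination mice 1 to 4. Both stages were below the untreated mice (2724 ± 405 CPM). The log2 fold change was 1.69 ± 0.24 (standard error, adjusted p = 0.00929), and without demyelination replicate 2 the adjusted p was 0.0531. Reads of Malat1 were found in 66 of 161 demyelination cells, 72 of 129 remyelination cells and 172 of 173 untreated cells, although the untreated cells were sequenced less deeply. With the stricter cell filter the log2 fold change was 2.07 (adjusted p = 0.00250), and in cells with 1000 to 2500 genes it was 2.63 and did not pass (adjusted p = 1.00).

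**Figure D2:**
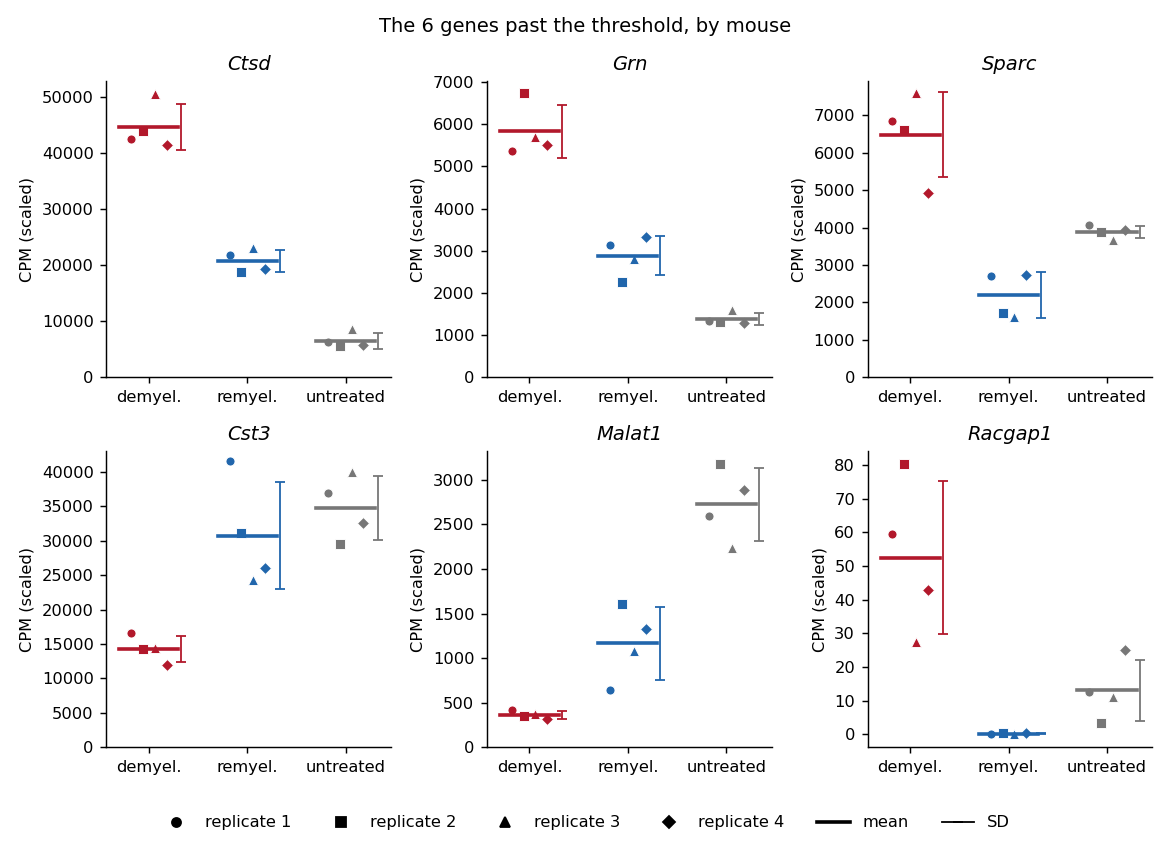
Level of the 6 called genes, as CPM after TMM scaling (vertical axis, from 0), in 4 mice each of demyelination, remyelination and untreated corpus callosum; points are mice, lines are means and bars SDs. No remyelination mouse overlaps a demyelination mouse in any panel, and Ctsd, Grn, Cst3 and Malat1 have remyelination means between those of demyelination and untreated mice.

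Racgap1 (ENSMUSG00000023015, chromosome 15, 99620496 to 99651656, minus strand), a GTPase-activating protein of the cytokinetic spindle, was called on few reads. It had 59.5, 80.3, 27.4 and 42.9 CPM in demyelination mice 1 to 4 and 0.122 to 0.243 CPM in the remyelination mice, or 3323 counts over demyelination and 8 over remyelination. From the counts alone the level was 293-fold higher in demyelination, with a 95% exact interval of 148 to 679 that covers counting error only. The counts came from 19 demyelination cells, and 3 of these held 45.6% of them. The edgeR adjusted p was 0.0263, and it was above 0.05 when any 1 mouse was left out (0.0558 to 0.181). Genes of the cell cycle as a list pointed the same way without a call. None of 39 tested members rose or fell, 36 had a lower and 3 a higher fitted level in remyelination, and the median log2 fold change was -2.07. In 7 of them every remyelination mouse was below every demyelination mouse, beside 2.63% of all genes tested. Cdk1, the mitotic kinase, had 68.0, 162, 119 and 106 CPM in demyelination and 0.122, 0.206, 22.8 and 52.2 CPM in remyelination (adjusted p = 0.401). Mki67, a marker of dividing cells, overlapped between the stages, with 18.3 to 107 CPM in demyelination and 0.0759 to 69.1 CPM in remyelination (adjusted p = 0.796). Mki67 reads were found in 13 of 161 and 8 of 129 cells, so these lists rest on a few cells in each stage.

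Of the genes of antigen presentation none passed. Cd74, H2-Aa and H2-Ab1 had higher levels in remyelination mice 2, 3 and 4 than in any demyelination mouse, while remyelination mouse 1 overlapped with them. Cd74, the invariant chain that guides MHC class II molecules, measured 477, 120, 804 and 392 CPM in demyelination mice 1 to 4, 544, 7808, 4969 and 2172 CPM in remyelination mice 1 to 4 and 31.3 ± 36.6 CPM in untreated mice. The spread was wide in both stages, and remyelination mouse 2 was the highest. The log2 fold change was 3.11 ± 0.97 (standard error) and did not pass (edgeR adjusted p = 0.290, DESeq2 adjusted p = 0.0119). The class II chains H2-Aa and H2-Ab1 had the same order of mice as Cd74 in remyelination but not in demyelination: H2-Aa had 0.641 to 304 CPM in demyelination and 36.0, 2654, 1478 and 699 CPM in remyelination mice 1 to 4, and H2-Ab1 had 12.1 to 227 CPM and 178, 1559, 1377 and 257 CPM (edgeR adjusted p = 0.290 for both, DESeq2 adjusted p = 0.0249 and 0.0462). After thinning each cell to 20000 counts, Cd74 reads were found in 19.6% to 31.6% of cells in demyelination mice and in 34.5%, 60.6%, 75.0% and 48.4% in remyelination mice (26.4% ± 5.28 against 54.6% ± 17.3), beside 5.09% ± 4.02 in untreated mice. Without thinning the shares were 56.8% ± 10.1 and 85.1% ± 14.3. A read of H2-Aa was found in 6.30% ± 4.22 and 32.0% ± 22.1 of thinned cells. Unthinned, the shares of H2-Aa were 20.8% ± 6.48 and 47.1% ± 28.6. The part of the lower number of detected genes per remyelination cell in these shares was not tested.

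Of 11 tested members of the class II list none passed in either direction, and its median log2 fold change was 0.45. Summed, these genes took 1.10% to 1.28% of the counts of the median cell in demyelination mice and 1.62% to 1.98% in remyelination mice (1.19% ± 0.0929 against 1.77% ± 0.152), with no overlap. Untreated mice had 1.06% to 1.40%. Ctss, whose levels are given above, is the most abundant member of the list in both stages and weighs most in these sums. In the median cell Cd74 had 0 to 3.39 CPM in demyelination mice and 3.71 to 1196 CPM in remyelination mice. How much of the difference between the sums is that of Ctss was not tested. The class I list gave 0 of 21 in either direction with a median of 0.69, where 18 members pointed higher and 3 lower, and took 1.01% ± 0.122 and 1.31% ± 0.272 of the counts of the median cell. H2-K1, a class I heavy chain named here after its values were seen, came nearest, with 376, 568, 494 and 467 CPM in demyelination mice 1 to 4 and 1233, 1292, 2010 and 932 CPM in remyelination mice 1 to 4. The groups did not overlap (log2 fold change 1.52 ± 0.27, standard error, adjusted p = 0.0590), and untreated mice had 204 ± 53.3 CPM. It passed without remyelination replicate 4 (adjusted p = 0.0259), with RLE scaling (0.0332), upper-quartile scaling (0.0441), DESeq2 (6.2e-05), no filter on low counts (0.00250), a detection filter at 20% of cells (0.0117) and no cell filter (0.0481). It did not pass when any other mouse was left out (adjusted p = 0.0884 to 0.226), with the stricter cell filter (0.146) or in cells with 1000 to 2500 genes (0.461). Nor did it pass with library size alone (0.0792), all 10 groups (0.0701), only the 2 cuprizone groups (0.131), the replicate block (0.102) or thinned cells (0.1055). It also missed the threshold without Apoe (0.0640) and without remyelination replicates 1 and 2 together (0.105). B2m, the shared light chain, had 4952 ± 226 and 6446 ± 1738 CPM (adjusted p = 0.357). Among 24 interferon response genes, none passed, 18 pointed higher and 6 lower, and the median log2 fold change was 1.11. Their summed share in the median cell was small, 0.0435% ± 0.0219 in demyelination and 0.0526% ± 0.0361 in remyelination, a difference within the spread between mice.

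The genes that microglia switch on in damaged white matter did not move as a block. Apoe, the apolipoprotein that carries cholesterol out of the cell, was the most abundant gene of both stages. It stood at 103812, 113621, 112588 and 71632 CPM in demyelination mice 1 to 4, at 236574, 157023, 137788 and 137876 CPM in remyelination mice 1 to 4 and at 753 ± 711 CPM in untreated mice. The stages did not overlap, and the difference did not pass (log2 fold change 0.74 ± 0.51, standard error, adjusted p = 0.635). In the median cell the level was 56493 to 87349 CPM in demyelination mice and 90991 to 146090 CPM in remyelination mice. Leaving Apoe out of the table before scaling left 6 calls.

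Cst7, cystatin F, an inhibitor of lysosomal cathepsins, had 1938, 3002, 2328 and 3016 CPM in demyelination mice 1 to 4 and 550, 178, 954 and 820 CPM in remyelination mice 1 to 4, with no overlap (log2 fold change -2.04 ± 0.62, standard error, adjusted p = 0.290). Untreated mice had 1.49 ± 1.10 CPM. Fn1, fibronectin, a matrix protein that monocytes also make, had 1041, 733, 458 and 1699 CPM in demyelination and 0.486, 87.4, 247 and 38.7 CPM in remyelination, again with no overlap (log2 fold change -3.39 ± 1.07, adjusted p = 0.290, DESeq2 adjusted p = 0.0246). Spp1, osteopontin, overlapped, with 22204, 11896, 13703 and 18419 CPM in demyelination and 4029, 4873, 17543 and 7973 CPM in remyelination (adjusted p = 0.512). In thinned cells, reads of Cst7 were found in 81.1% ± 6.49 of demyelination and 34.8% ± 19.4 of remyelination cells, of Fn1 in 47.8% ± 8.18 and 15.8% ± 8.41, and of Spp1 in 87.2% ± 7.20 and 67.0% ± 12.4. Unthinned, the shares of Cst7 were 91.8% ± 4.17 and 66.8% ± 20.0. The lower number of genes detected per remyelination cell goes in the same direction as these 3 shares, and its part in them was not tested.

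Cybb, the catalytic subunit of the phagocyte NADPH oxidase, went the other way. It had 351, 143, 289 and 388 CPM in demyelination mice 1 to 4, 874, 1060, 1489 and 811 CPM in remyelination mice 1 to 4 and 0.508 ± 0.789 CPM in untreated mice, and the stages did not overlap (log2 fold change 1.85 ± 0.69, standard error, adjusted p = 0.290). Reads were found in 20.1% ± 12.1 of thinned demyelination cells and 45.6% ± 13.6 of thinned remyelination cells. For 4 other genes of the damage response the summed levels overlapped between the stages. Lpl, lipoprotein lipase, had 1654 ± 288 and 1591 ± 667 CPM, Gpnmb, a glycoprotein of stressed macrophages, 1328 ± 1165 and 1382 ± 558 CPM, Clec7a, the beta-glucan receptor dectin-1, 774 ± 101 and 811 ± 312 CPM, and Trem2, the lipid-sensing receptor, 2171 ± 571 and 2085 ± 385 CPM. Per cell, Lpl separated the stages: the median cell had 674 to 1298 CPM in demyelination mice and 6.42 to 266 CPM in remyelination mice. Its reads were found in 74.7% ± 4.51 and 48.4% ± 9.75 of thinned cells and in 93.8% ± 1.56 and 76.4% ± 8.42 of unthinned cells. For Clec7a the median cell had 49.1 to 432 CPM and 0 to 215 CPM, and the thinned shares were 60.1% ± 5.40 and 39.6% ± 10.9. Tyrobp, the signalling adaptor of Trem2, had 6677 ± 498 and 4588 ± 882 CPM with no overlap (adjusted p = 0.290). Of 33 tested members of the disease-associated list, 1 fell (Ctsd) and none rose, and the median log2 fold change was -0.38. In 7 members, Ctsd, Ctsz, Tyrobp, Ctsl, Ccl6, Cst7 and Plin2, every remyelination mouse was below every demyelination mouse, and in 1, Apoe, every one was above. Over all genes tested, 2.63% lay below and 1.52% above in this way.

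**Figure D3:**
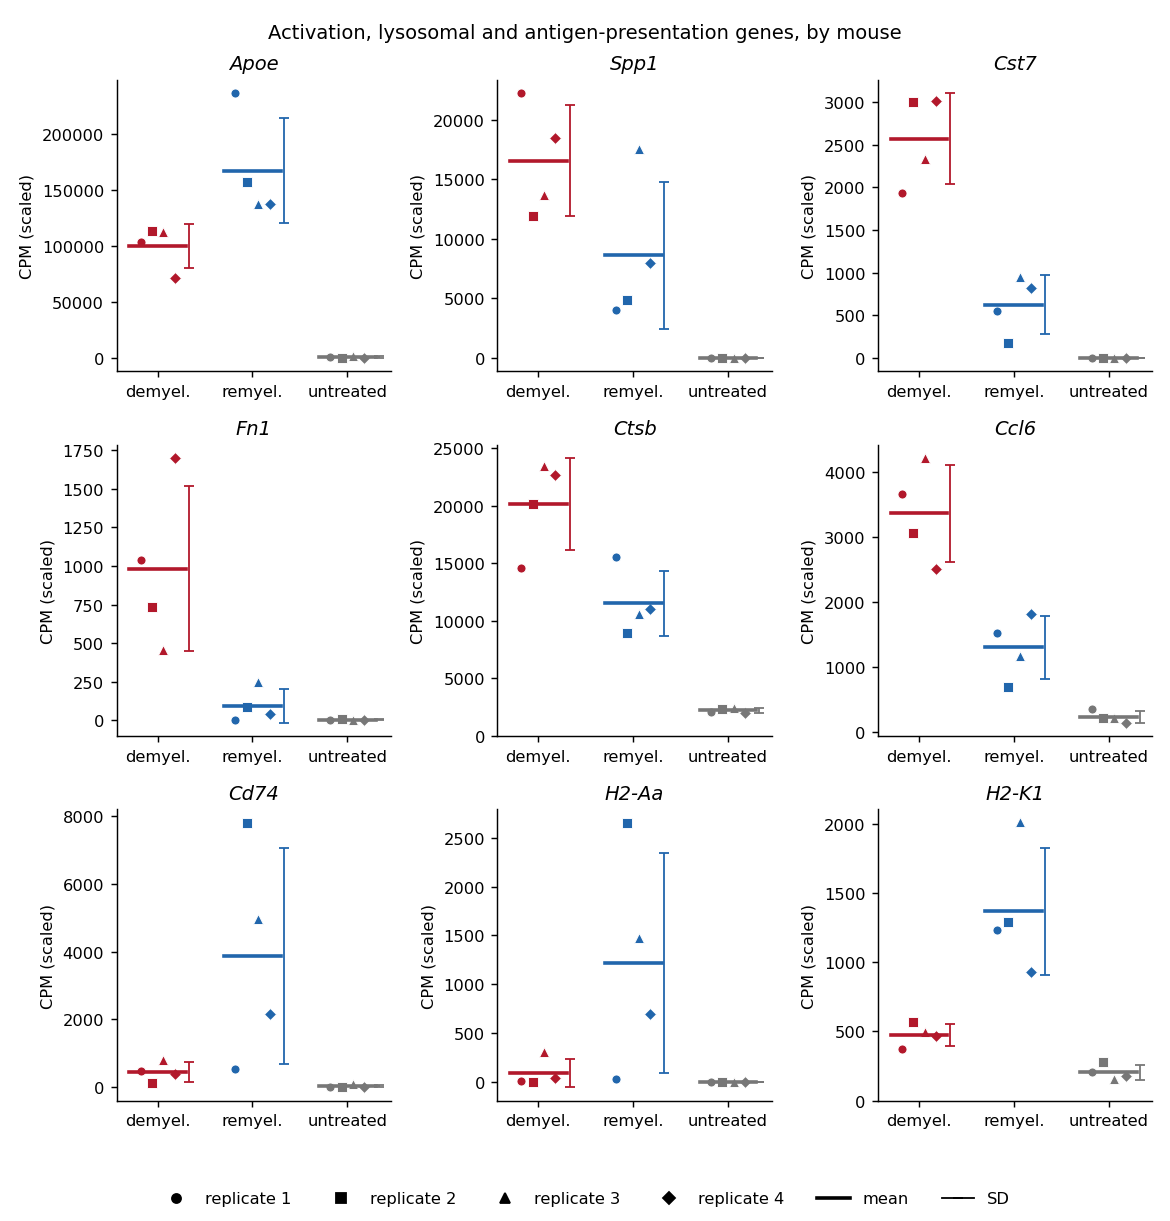
Level in CPM after TMM scaling (vertical axis) of 9 genes of the damage response, the lysosome and antigen presentation in 4 mice each of demyelination, remyelination and untreated corpus callosum; points are mice, lines are means and bars SDs, which can reach below 0. Cst7, Fn1 and Ccl6 lie lower and Apoe and H2-K1 higher in every remyelination mouse, and Cd74 and H2-Aa are at the demyelination level in remyelination mouse 1 (544 and 36.0 CPM); none of the 9 passed the threshold.

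The 4 most abundant chemokines of the list parted into pairs. Ccl6 had 3660, 3055, 4210 and 2506 CPM in demyelination mice 1 to 4 and 1524, 700, 1178 and 1813 CPM in remyelination mice 1 to 4 (log2 fold change -1.36 ± 0.30, standard error, adjusted p = 0.189), and Ccl9 had 566 ± 260 and 143 ± 88.3 CPM (adjusted p = 0.290), both with no overlap. Ccl3 had 525 ± 138 and 684 ± 383 CPM and Ccl4 230 ± 167 and 559 ± 603 CPM, with overlap in each. None of the 9 tested chemokines passed, and their median log2 fold change was 0.72. Summed over the list, the share of the median cell went the other way. It was 0.321% ± 0.0916 in demyelination and 0.148% ± 0.0342 in remyelination, with no overlap between mice. Among 13 cytokines and growth factors none passed (median 0.74). Igf1, a growth factor for oligodendrocytes, had 401 ± 118 and 303 ± 231 CPM. In 15 genes of matrix and secreted proteins Sparc fell, none rose and the median was 0.37. The summed share of this list in the median cell was lower in remyelination. It was 1.52% ± 0.132 in demyelination and 0.635% ± 0.251 in remyelination, with no overlap between mice. Serpine2, a protease inhibitor in that list, had 1047 ± 363 and 424 ± 155 CPM with no overlap (adjusted p = 0.290).

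Of 29 tested genes of resting microglia, Cst3 rose and Sparc fell, and the median log2 fold change was 0.22. In 2 members, Cst3 and Mef2c, every remyelination mouse was above every demyelination mouse, and in 2, Sparc and Serpine2, every one was below. Over all genes tested, 1.52% lay above and 2.63% below in this way. The best-known members overlapped between the stages, and several were below the untreated mice in both, a difference that was also one of plates and was not tested. P2ry12, a purine receptor, had 1606 ± 688 CPM in demyelination and 1454 ± 520 CPM in remyelination against 5619 ± 595 CPM in untreated mice (log2 fold change between the stages -0.14 ± 0.30, adjusted p = 0.931). Tmem119 had 393 ± 161, 459 ± 142 and 3103 ± 722 CPM in the same order, and the fractalkine receptor Cx3cr1 had 2302 ± 354, 2824 ± 477 and 4788 ± 300 CPM (adjusted p = 0.875 and 0.424 between the stages). Csf1r, the receptor for the growth factor that keeps microglia alive, had 3752 ± 599, 3783 ± 734 and 5399 ± 907 CPM. C1qa, a subunit of the first complement component, had 4785 ± 481 CPM in demyelination and 6420 ± 1737 CPM in remyelination with no overlap (adjusted p = 0.290), and none of 13 complement genes passed (median 0.41).

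In energy metabolism the nuclear and the mitochondrial genes pointed in opposite directions. All 9 tested genes encoded in the mitochondrial genome had a higher fitted level in remyelination, with a median log2 fold change of 0.52, and none passed. In 4 of them every remyelination mouse was above every demyelination mouse, beside 1.52% of all genes tested. mt-Cytb, cytochrome b, had 4906, 6655, 6892 and 5545 CPM in demyelination and 8684, 11150, 7113 and 7418 CPM in remyelination (adjusted p = 0.290). The mitochondrial share of counts given above is the sum of these genes and is also a measure of cell quality. Of 40 nuclear genes of oxidative phosphorylation 31 pointed lower and 9 higher (median -0.24), and of 17 genes of glycolysis 12 pointed lower and 5 higher (median -0.62), with 0 called in either. Ldha, lactate dehydrogenase, had 891 ± 30.1 and 482 ± 313 CPM (adjusted p = 0.322). Genes of the actin skeleton had a median of -0.23 over 29 members, and the most abundant, Tmsb4x, had 15609 ± 942 and 11619 ± 1191 CPM with no overlap (adjusted p = 0.305). The 49 ribosomal protein genes were centred on 0 (median -0.03). In the remaining lists none passed: cholesterol synthesis (21 tested, median 0.18), lipid uptake and cholesterol efflux (24, -0.15), phagocytosis receptors (24, -0.10), iron and antioxidant genes (33, -0.14), transcription factors (24, 0.19) and immediate early genes, which mark stress of cell isolation (22, 0.16). For lipid uptake and cholesterol efflux the summed share of the median cell went the other way from the list median. It was 8.73% ± 1.11 in demyelination and 12.2% ± 2.09 in remyelination, with no overlap between mice. Fth1, ferritin heavy chain, had 9557 ± 882 and 13243 ± 4856 CPM (adjusted p = 0.400).

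**Figure D4:**
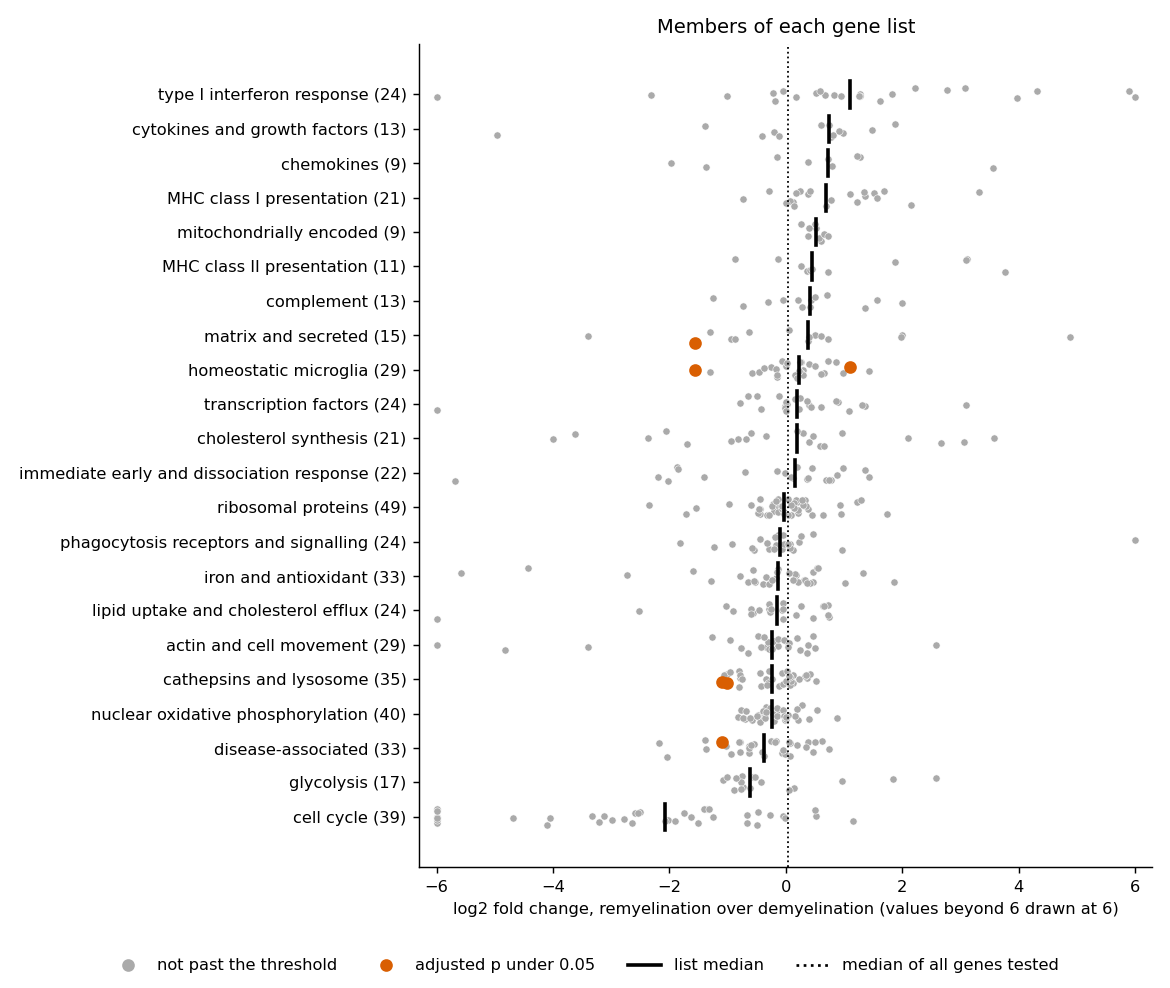
Log2 fold change of remyelination over demyelination for each tested member of 22 gene lists (horizontal axis; number tested in brackets), with list medians as black bars and the median of all genes as a dotted line. The called members are Sparc, which is in 2 lists, Cst3, Ctsd, which is in 2 lists, and Grn; cell cycle genes have the lowest median (-2.07) and interferon genes the highest (1.11).

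Markers of other cell types were few in both stages. Of the border macrophage markers, Ms4a7 had 0 to 19.8 CPM in demyelination mice and 297, 136, 240 and 59.3 CPM in remyelination mice 1 to 4, every one above demyelination (adjusted p = 0.290), with reads in 8 of 161 and 27 of 129 cells. Of the 7 tested markers of that list 5 pointed higher and 2 lower, none passed, and the median log2 fold change was 1.34. Mrc1, which encodes CD206, one of the stained proteins, had 2 counts in demyelination and 1527 in remyelination, the latter at 40.6, 1.44, 0 and 95.3 CPM in mice 1 to 4 and from 5 cells (adjusted p = 0.290). Folr2 went the other way, with 5.14 to 24.7 CPM in demyelination and 0 to 4.61 CPM in remyelination (adjusted p = 0.565). Lyve1 and Cd163 had no reads in remyelination, and 2 remyelination and 3 demyelination cells had reads of 3 or more of the 10 markers. The summed level of the list was 115 to 264 CPM in demyelination mice, 224 to 648 CPM in remyelination mice and 47.5 to 235 CPM in untreated mice. Its part in the MHC and Cybb values was not tested. The summed monocyte markers were 461 to 1725 CPM in demyelination mice and 77.6 to 285 CPM in remyelination mice. In demyelination nearly all of this sum was Fn1, and no read of Ly6c2 was found in either stage. Of the 7 tested monocyte markers 5 pointed higher in remyelination and 2 lower. None passed, and their median log2 fold change was 1.15. Oligodendrocyte markers summed to 774 to 1313 CPM and 667 to 2068 CPM, with 3 of 7 tested members pointing higher and 4 lower (median log2 fold change -0.18). The list holds Trf, which had reads in 156 of 161 demyelination and 114 of 129 remyelination cells. Trf had 38746 and 23219 counts in the 2 stages, beside 10084 and 12865 of Mbp. Reads of 3 or more of these markers were found in 26 demyelination and 20 remyelination cells. Mbp, myelin basic protein, had 295, 151, 70.2 and 145 CPM in demyelination and 572, 56.9, 102 and 507 CPM in remyelination, and Mobp had 916, 0, 4.02 and 94.5 CPM in remyelination mice 1 to 4 against at most 11.5 CPM in demyelination. In remyelination the 3 cells richest in each gene held 73.4% of the Mbp counts and 86.0% of the Mobp counts. Cnp, a myelin enzyme, had 148, 27.9, 62.6 and 49.2 CPM in demyelination and 1.22, 4.75, 36.8 and 37.8 CPM in remyelination (adjusted p = 0.464). Dendritic cell markers summed to 304 to 839 CPM in demyelination, 456 to 887 CPM in remyelination and 1387 to 2348 CPM in untreated mice; the list holds Siglech, which microglia also express. Astrocyte markers summed to at most 386 and 306 CPM, endothelial markers to at most 214 and 337 CPM and oligodendrocyte precursor markers to at most 112 and 190 CPM in demyelination and remyelination mice. Neuron, T and NK cell and erythroid markers summed to at most 22.8 CPM in each cuprizone mouse. Neutrophil markers summed to 350 to 478 CPM and 332 to 574 CPM and B cell markers to 277 to 451 CPM and 66.9 to 372 CPM in demyelination and remyelination. Only 2 of the 8 neutrophil markers, Csf3r and Ngp, had reads in remyelination, where S100a8 and S100a9 had none.

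To see whether the difference between the stages was that of any injury passing from an early to a late stage, it was set against the difference between day 14 and day 3 after facial nerve axotomy, which shares no sample with it and was also measured within 1 plate. The difference of the 2 log2 fold changes was tested on 16 sums. Kind of injury, brain region and plate all differ between the 2 pairs and cannot be told apart. Of 18233 genes tested, 10 passed (0.0548%), 7 with a higher and 3 with a lower value in the cuprizone pair, and 1897 had an unadjusted p under 0.05. Ctsd was again among them: it was at 49137 ± 4021 and 22164 ± 2270 CPM in demyelination and remyelination and at 5306 ± 784 and 4889 ± 742 CPM on days 3 and 14, a difference of -1.03 ± 0.17 on the log2 scale (standard error, adjusted p = 0.0210). Levels in this fit are scaled over its own 16 sums and so differ slightly from those above. Ccl6 was at 3697 ± 796 and 1394 ± 525 CPM in demyelination and remyelination and at 114 ± 51.0 and 259 ± 61.6 CPM on days 3 and 14 (difference -2.60 ± 0.43, adjusted p = 0.0210).

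The 7 genes with a higher value in the cuprizone pair were all encoded in the mitochondrial genome. mt-Cytb was at 6602 ± 953 and 9134 ± 1792 CPM in demyelination and remyelination and at 8549 ± 1186 and 4009 ± 600 CPM on days 3 and 14 (difference 1.56 ± 0.22, adjusted p = 0.00471). mt-Nd1, mt-Nd4, mt-Rnr1, mt-Co1, mt-Nd5 and mt-Rnr2 had differences of 1.35, 1.58, 1.72, 1.43, 1.68 and 1.36 (adjusted p = 0.0211 to 0.0349). In each of the 7 most of the difference lay in the axotomy pair, with log2 fold changes of -0.79 to -1.34 from day 3 to day 14 against 0.22 to 0.62 from demyelination to remyelination. The median mitochondrial share, used as a quality measure, is the sum over the mitochondrial genes, these 7 included, so it is not separate from them. It was 3.00% ± 0.748 on day 3 and 1.55% ± 0.104 on day 14, beside 1.61% and 2.38% in the cuprizone stages. The part of cell quality in these differences was not tested. Tbc1d10b, a regulator of Rab GTPases, made up the third gene with a lower value, on 22.1 ± 14.5 CPM in demyelination and 0.0221 ± 0.0442 CPM in remyelination (adjusted p = 0.0319). It kept its call in 4 of 24 alternatives, while mt-Cytb kept it in 23, Ccl6 in 21, Ctsd in 20, mt-Nd1 in 14, mt-Rnr1 in 12, and mt-Nd4 and mt-Co1 in 11 each. The number of calls varied widely when 1 mouse was left out, from 1 without demyelination replicate 1 to 15 without remyelination replicate 3, and with the stricter cell filter edgeR called 0, with 1775 genes at an unadjusted p under 0.05.

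**Figure D5:**
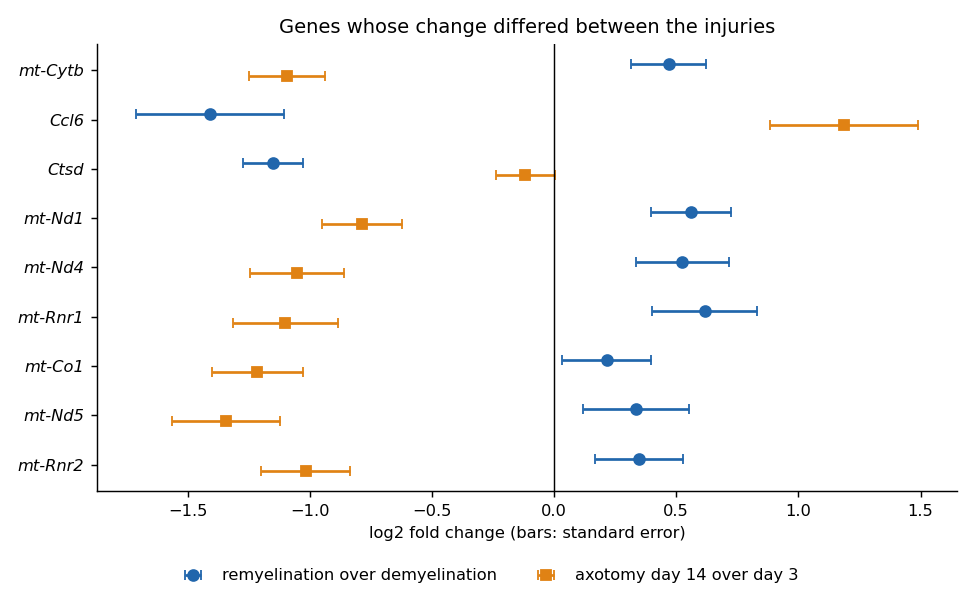
Log2 fold change of remyelination over demyelination (circles) and of axotomy day 14 over day 3 (squares), with standard errors, for 9 of the 10 genes whose 2 changes differed; Tbc1d10b, nearly without reads in remyelination, is left out. The mitochondrial genes lie at 0.22 to 0.62 in the cuprizone pair and at -0.79 to -1.34 in the axotomy pair, and Ctsd lies at -1.15 and -0.12.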

How the data were processed

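The authors deposited raw counts, as whole numbers for each gene in each well, without normalization. The submitters' processing notes name STAR 2.5.2b, featureCounts 1.5.1 and the build GRCm38; which annotation was counted, and whether by strand, is not given in the sources used here. Libraries of the Smart-seq2 kind carry no strand information, and genes that overlap cannot be told apart. Gene coordinates come from the deposited table and symbols from GENCODE vM21 (48349 of 48709 gene identifiers); promoter sequences are RefSeq's. Spike-ins (92 entries) stayed out of library sizes.

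Kept cells were summed per mouse and fitted with edgeR 4.0.16 in R 4.3.3 (TMM scaling, minimum count 10, minimum total count 15, robust quasi-likelihood F test, Benjamini-Hochberg false discovery rate 0.05) over 12 sums: demyelination, remyelination and untreated corpus callosum. Levels and marker sums are TMM-scaled CPM, values per cell and list shares are relative to the cell's own total, and errors are SDs over 4 mice unless named standard errors. Doublets were not called, as wells received single sorted cells. The groups, comparison and gene lists were chosen with earlier results of these data known. Genes were named by rule: the markers of the comparison, called genes (at most 15 by size at a mean of at least 100 CPM and 10 by p in each direction), called and 4 most abundant members of each list, a panel of 30 genes, and 5 genes by p in each direction of the axotomy test. H2-K1, Ctsz, Ctsl, Plin2, Serpine2, Gaa, Lgmn and single markers of other cell types were named after their values were seen. The fits were run on simulated counts that had the same spread for all genes and changes only in abundant genes. This checks the code, not how often calls are wrong in these sums. The alternatives tried were other scalings, DESeq2 1.42.0, other gene and cell filters, other sets of groups, a replicate block and leaving out mice. Intervals cover counting error only.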

Additional observations from a re-analysis of the deposited data

Results flagged for a closer look

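Of 118 groups of 4 mice examined, 9 had 1 mouse far from the other three, where chance gives about 1 group in 20. H2-Aa stood at 304 CPM in demyelination mouse 3 against 0.641 to 43.1 CPM in the others. Lpl was 2086 CPM in demyelination mouse 3 against 1496 to 1529 CPM, and Ldha was 846 CPM in the same mouse against 902 to 913 CPM. Mki67 was 69.1 CPM in remyelination mouse 4 against 0.0759 to 7.29 CPM. Mobp, a myelin gene, was 916 CPM in remyelination mouse 1 against 0 to 94.5 CPM, and 11.5 CPM in demyelination mouse 4 against 0 to 0.954 CPM. Mrc1 was 0.117 CPM in demyelination mouse 2, which is 2 reads, and 0 in the others. The median cell of demyelination mouse 1 had 1877 genes against 2186.5 to 2192 in the others, and 1161.5 against 1364.5 to 1404 after thinning to 20000 counts.

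The change from demyelination to remyelination differed from the change between days 3 and 14 after axotomy in 10 genes by edgeR's test of the difference, given here as log2 values. It was 1.56 for mt-Cytb, 1.35 for mt-Nd1, 1.58 for mt-Nd4, 1.72 for mt-Rnr1, 1.43 for mt-Co1, 1.68 for mt-Nd5 and 1.36 for mt-Rnr2. It was -2.60 for Ccl6, -1.03 for Ctsd and -10.12 for Tbc1d10b.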

How the results depend on the processing

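No named gene that was called in the main fit or in an alternative changed direction between them. For named genes not called in the main fit, 243 values changed direction without a call or had no adjusted p. Of the other values of these genes, 2653 kept their direction without a call and 45 kept it and gained a call. The count of 6 called genes became 596 with DESeq2 (315 higher, 281 lower), 114 without a filter on low counts (53 higher, 61 lower), 101 when all 10 groups were fitted together (54 higher, 47 lower), 1 with only the 2 cuprizone groups and 1 in cells with 1000 to 2500 genes; leaving out 1 mouse gave 3 (without demyelination replicate 2) to 8. The count of 10 genes that differed from axotomy became 580 with DESeq2 (286 and 294), 80 without a filter on low counts (47 and 33), 22 with all 10 groups (14 and 8), 4 with cells thinned to 20000 counts, 2 with the replicate block, 0 with the stricter cell filter (edgeR, 1775 genes at an unadjusted p under 0.05) and 3 without remyelination replicates 1 and 2, a setting chosen after seeing the data; leaving out 1 mouse gave 1 (without demyelination replicate 1) to 15. The cause of these shifts was not tested. Other scalings, a detection filter at 20% of cells, no cell filter, the stricter cell filter, thinning, and leaving out Apoe or both remyelination replicates 1 and 2 (the last 2 chosen after seeing the data) gave 4 to 7 genes in the comparison of stages. Of 23 alternatives, Ctsd and Sparc held the call in 22, Cst3 and Malat1 in 20 and Grn in 17, and Racgap1 held it in 8 of 21. Replicate numbers did not pair the mice: same-numbered demyelination and remyelination mice had correlations of their deviations from -0.06 to -0.004 over 2534 genes, and no mouse correlated best with its own number. With the replicate block 5 genes passed between the stages, and Racgap1 was lost. The lower number of cells and of detected genes in remyelination limits what can be said of genes found in few cells.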
